A study of Homo sapiens with 9 samples.

Results

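TYMSOS, TYMS and ENOSF1 are neighbouring genes on the short arm of chromosome 18, and they were followed here across 9 RNA-seq libraries because the RNA of TYMSOS, which is read from the strand opposite to TYMS, was lower in cells expressing mutant p53. They are 3 of the 78986 genes in the deposited count table. TYMSOS was chosen by its values, since it was among the genes past an adjusted p of 0.05 against WT p53 in both mutants, so its levels against WT are given as a description without a test. TYMS and ENOSF1 were taken by their position beside it, whatever their values. The question was whether the fall of the antisense RNA extended to its neighbours.

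The libraries came from HEK293T cells, a human embryonic kidney line that carries the SV40 large T antigen, a protein that binds p53, and that still makes its own p53. The cells were transduced with lentivirus encoding WT p53, G245S p53 or R273H p53 and selected with puromycin, and each of these stable populations was sequenced in 3 biological replicates. G245S alters the fold of the DNA-binding domain of p53 and R273H removes a contact with DNA. All 3 populations therefore carry a virus and an added p53, cells expressing WT p53 served as the control, and whether the populations were clones is not given in the sources used here. No repeat transduction of a variant is described for these libraries, so the p53 expressed and the population cannot be told apart. The p-values below measure spread between libraries, not between populations.

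TYMS encodes thymidylate synthase, the enzyme that makes dTMP from dUMP with a folate as the carbon donor. It is the de novo source of thymidylate, its gene is one of the classical E2F-driven genes of S phase, and it is the target of fluorouracil. The protein is also known to bind its own mRNA. TYMSOS is a long noncoding RNA of unsettled function. ENOSF1 encodes a mitochondrial protein of the enolase superfamily that acts on L-fuconate, and it was first described as an RNA antisense to TYMS.

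In GRCh38, the build of the table, TYMSOS (ENSG00000176912) lies on the minus strand of chromosome 18 from 630886 to 658352, TYMS (ENSG00000176890) on the plus strand from 657653 to 673578, and ENOSF1 (ENSG00000132199) on the minus strand from 670318 to 712662. The 2 ends of TYMS are therefore each covered from the other strand. With the exons of all annotated transcripts merged, TYMSOS begins inside the second exon block of TYMS and is read back across the first block and the promoter, with an overlap of 700 bases between the genes, of which 195 are exonic in both. ENOSF1 ends inside TYMS, with an overlap of 3261 bases and 967 bases exonic in both. TYMSOS and ENOSF1 share a strand but are separated by 11965 bases. Reads were counted by strand, and so the overlapping exons can be assigned to each gene, as far as the strand of each read was kept in the library.

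**Figure D1:**
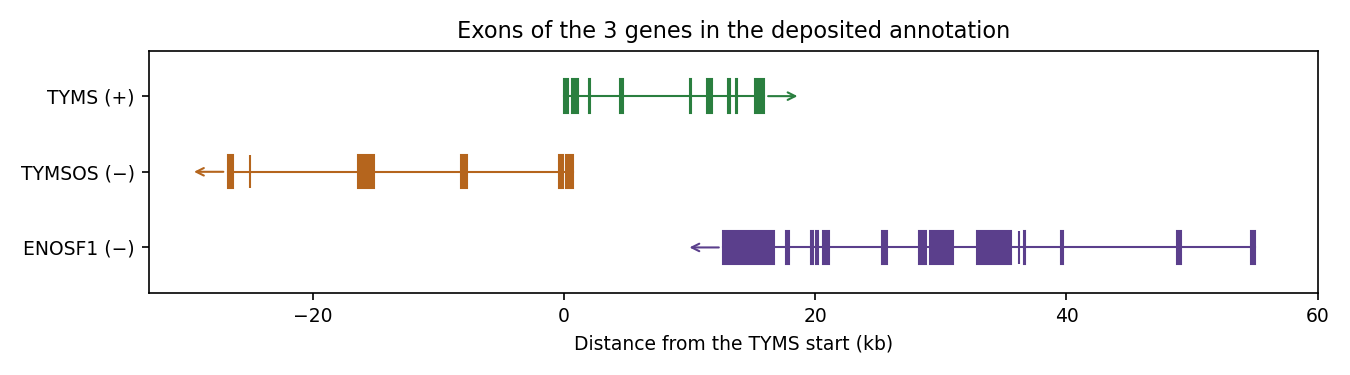
Exons of TYMS, TYMSOS and ENOSF1 (boxes) along the chromosome, as the distance from the TYMS start in kb, with an arrow for the direction in which each gene is read. TYMSOS overlaps the first 700 bases of TYMS from the opposite strand, and ENOSF1 the last 3261.

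The 250 bases before the start of each gene are shown because TYMSOS is read through the promoter of TYMS. Of the 250 bases before the TYMS start, 196 lie in exons of TYMSOS on the other strand. The sequences are from RefSeq (GRCh38.p14), written 5′ to 3′ on the strand of each gene, with capitals for a GC box, a CCAAT box, a TATA box or an E2F site on either strand. The letters searched were GGGCGG for the GC box, the CCAAT box by its name, and TATAAA for the TATA box. For E2F they were TTTCCCGC and also TTTGGCGC and then TTTCGCGC, and none of the matches shown overlap. RefSeq starts TYMSOS further downstream than the table, at the base next to the window shown.
TYMS, chr18:657403-657652, plus strand: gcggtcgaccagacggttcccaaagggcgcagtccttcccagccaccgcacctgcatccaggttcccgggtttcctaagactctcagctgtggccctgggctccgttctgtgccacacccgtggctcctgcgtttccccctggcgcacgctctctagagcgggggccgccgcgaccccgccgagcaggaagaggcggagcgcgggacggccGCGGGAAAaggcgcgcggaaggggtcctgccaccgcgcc
TYMSOS, chr18:658292-658541, minus strand: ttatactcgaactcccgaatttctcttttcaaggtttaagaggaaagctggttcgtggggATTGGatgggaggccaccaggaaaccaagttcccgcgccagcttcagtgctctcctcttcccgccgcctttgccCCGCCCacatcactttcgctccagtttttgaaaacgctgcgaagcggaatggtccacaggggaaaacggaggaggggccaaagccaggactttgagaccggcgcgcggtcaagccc
ENOSF1, chr18:712631-712880, minus strand: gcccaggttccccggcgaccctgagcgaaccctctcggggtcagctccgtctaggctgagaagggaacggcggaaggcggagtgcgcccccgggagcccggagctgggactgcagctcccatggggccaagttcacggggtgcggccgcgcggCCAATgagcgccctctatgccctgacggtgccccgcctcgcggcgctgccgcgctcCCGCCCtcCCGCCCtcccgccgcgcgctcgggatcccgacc
The TYMS window held 1 E2F match (TTTCCCGC, read on the other strand), a motif found in 1.39% of 35116 promoter windows of the same length. The TYMSOS window held 1 GC box and 1 CCAAT box, and the ENOSF1 window 2 GC boxes and 1 CCAAT box, motifs found in 42.6% and 32.0% of windows. None of the 3 held a TATA box, present in 10.7%, or a match to the p53 motif that was searched, present in 5.57%. The other E2F spellings, in 0.55% and 0.439% of windows, were in none of the 3. GC content was 71.2% in the TYMS window, 56.8% in that of TYMSOS and 75.6% in that of ENOSF1, beside a median of 58.0% over all windows. These are matches of letters in short windows and say nothing about binding.

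Libraries held between 7325514 and 9667306 counts, apart from WT replicate 3 with 1486315. That library was under 0.5 times the median of the others and was left out of the fits. The study left out a WT replicate for both poor sample quality and low reads, without naming it. The values of WT replicate 3 are given beside the results. Levels are given in CPM (counts of a gene as a proportion of its library, after TMM scaling). Of the epithelial markers, KRT18 was at 59.3 to 148 CPM, with a median of 64.6, and KRT8 at 9.71 to 50.5 CPM, with a median of 11.2. EPCAM and CDH1 were low, with medians of 2.03 and 1.11 CPM and highest values of 12.9 and 3.24 CPM. The highest value of each of these genes was that of WT replicate 3, so its marker levels set it apart from the other libraries. Its values below carry that limit. Of the markers taken for HEK293 lines, NEFM had a median of 164 CPM, CDH2 of 77.9 and NEFL of 48.4, while PAX2 was low at 3.53. PTPRC of leukocytes reached at most 0.949 CPM, PECAM1 of endothelium was at 0 in 8 libraries and ALB of liver in 7, and COL1A1, a collagen of fibroblasts, was at 13.0 to 36.6 CPM.

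TYMSOS, the antisense RNA, was lower in every mutant library than in every WT library. It was at 10.2 and 9.36 CPM in WT replicates 1 and 2, from 88 and 73 counts. In G245S it was at 3.67, 5.08 and 4.70 CPM, from 35, 39 and 38 counts. In R273H it was at 3.92, 4.75 and 2.87 CPM, from 34, 35 and 24 counts. The groups did not overlap, and the lowest WT library fitted stood 4.28 CPM above the highest mutant library. Against WT replicates 1 and 2, 9.19% of genes tested in G245S and 11% in R273H were lower without overlap. For all 6 mutant libraries against all 3 WT libraries the share was 1.78% of 15638 genes. This gave log2 fold changes of −1.15 in G245S (standard error 0.191) and −1.35 in R273H (standard error 0.205), the values by which TYMSOS was chosen. In all, 0.107% of 15893 genes tested were called lower in G245S and 0.112% of 16022 in R273H. Called higher were 0.0189% and 0.025%. With all 3 WT libraries the values were −1.12 and −1.32, and the first of these was no longer past the threshold by which TYMSOS was chosen.
WT replicate 3 was not among the libraries fitted for those values, but the locus was chosen with earlier results of these data known. It held 12 TYMSOS counts, 7.77 CPM, with a 95% exact Poisson interval from 4.01 to 13.6 CPM that covers counting error only. That value was nearer to the other WT libraries than to any mutant library, but the lower end of its interval reached into the range of the mutants. The comparison between the mutants was not itself used to choose TYMSOS, but a choice by a fall in both mutants favours like levels in them. G245S cells held a mean of 4.48 ± 0.726 CPM (SD, n = 3), and R273H cells 3.84 ± 0.942 CPM (SD, n = 3). R273H against G245S gave a log2 fold change of −0.20 (95% interval from −0.69 to 0.28, adjusted p = 0.994 by edgeR's quasi-likelihood fit). A difference between the mutants was not detected. Since the choice of TYMSOS favoured that outcome, no conclusion is drawn from this comparison. In that comparison 0% of 15614 genes passed an adjusted p of 0.05, and 4.75% had an unadjusted p under 0.05.

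**Figure D2:**
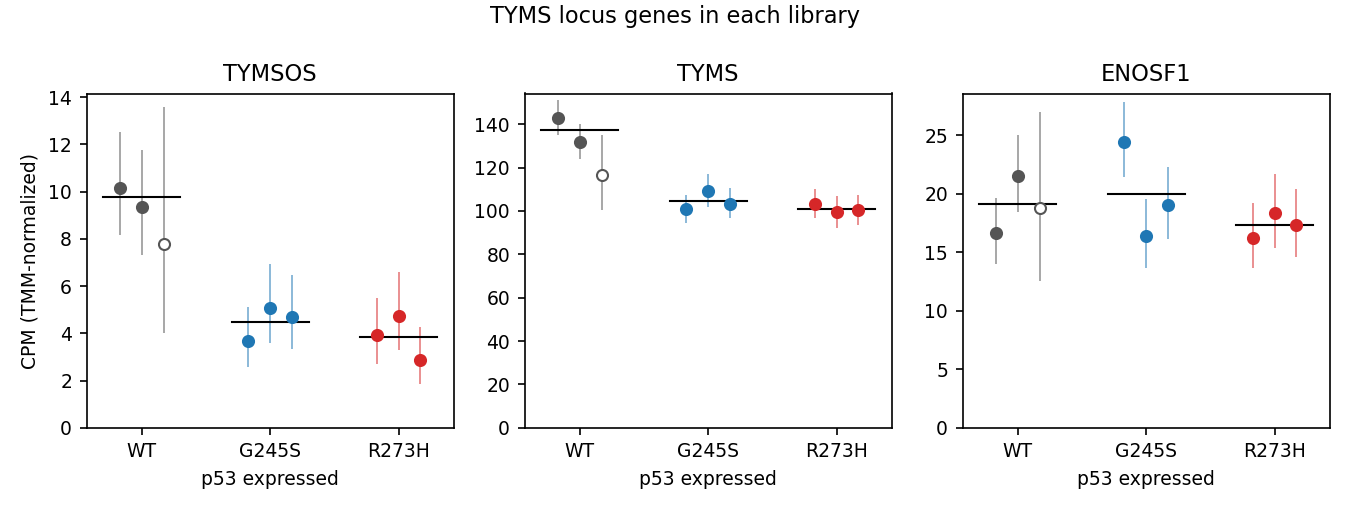
CPM of TYMSOS, TYMS and ENOSF1 in each of 9 libraries, by the p53 expressed. Points are libraries, the open point is WT replicate 3, vertical lines are 95% exact Poisson intervals of the count and horizontal lines are means of the libraries fitted. TYMSOS and TYMS stand higher in all WT libraries than in all 6 mutant libraries, and ENOSF1 overlaps between the groups.

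TYMS, the sense gene, also had lower levels in the mutant libraries, by a smaller amount that did not pass the adjusted threshold in either mutant. It was at 143 and 132 CPM in WT replicates 1 and 2. In G245S it was at 101, 109 and 103 CPM, and in R273H at 103, 99.3 and 100.3 CPM. Every mutant library was below both WT libraries fitted, and below WT replicate 3 at 116 CPM as well, so that the 3 WT and 6 mutant libraries did not overlap. Such a separation was seen in 1.78% of 15638 genes. Against WT replicates 1 and 2 alone, 9.19% of the genes tested in G245S and 11% of those in R273H were lower without overlap.
WT cells held a mean of 137 ± 8.01 CPM of TYMS (SD, n = 2), G245S cells 104 ± 4.36 CPM (SD, n = 3) and R273H cells 101 ± 2.01 CPM (SD, n = 3). TYMS differed in G245S by a log2 fold of −0.41 (95% interval from −0.60 to −0.22, adjusted p = 0.174 by edgeR), and in R273H it was −0.44 (95% interval from −0.62 to −0.26, adjusted p = 0.072). These correspond to 0.754 and 0.737 times the WT level. Neither passed an adjusted p of 0.05, although TYMS ranked 38 and 26 among all genes tested, with unadjusted p-values of 0.000416 and 0.000118 by the same edgeR test. At an unadjusted p under 0.05, 3.3% and 3.33% of all genes were lower. Adding WT replicate 3 moved these to −0.38 and −0.41 (adjusted p = 0.360 and 0.251 by edgeR). In bulk RNA, fewer cells that express a gene and less of its RNA in each cell cannot be told apart, and this holds for every gene described here.
With the 6 mutant libraries taken as 1 group, a comparison added after the values were seen, TYMS had a log2 fold change of −0.43 (95% interval from −0.57 to −0.28, adjusted p = 0.00785 by edgeR's quasi-likelihood fit). With WT replicate 3 included, it was −0.40 (adjusted p = 0.0159 by edgeR). In that comparison 0.165% of 16398 genes were called lower. An exact two-sided permutation test of log2 CPM over 3 WT and 6 mutant libraries gave p = 0.0238, the smallest p that this design allows. It and the pooled fit treat libraries as the units, although the 6 mutant libraries come from only the G245S and R273H populations. Between the mutants TYMS had a log2 fold change of −0.034 (95% interval from −0.19 to 0.12, adjusted p = 0.994 by edgeR), with the 2 groups overlapping.

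The antisense RNA differed from WT by a larger fold than its sense partner. For every 100 TYMS counts, the WT libraries held 7.11, 7.11 and 6.69 TYMSOS counts in replicates 1 to 3. The G245S libraries held 3.65, 4.65 and 4.55, and the R273H libraries 3.80, 4.78 and 2.86. This ratio is taken within a library and does not depend on scaling. All 3 WT libraries lay above all 6 mutant libraries, and WT replicate 3 lay close to its fellow replicates. As a log2 value the ratio was −3.82 ± 0.0246 (SD, n = 3) in WT, −4.54 ± 0.192 (SD, n = 3) in G245S and −4.72 ± 0.366 (SD, n = 3) in R273H. The WT values rest on 88, 73 and 12 TYMSOS counts. Counting error alone puts TYMSOS in WT replicate 3 between 4.01 and 13.6 CPM, so the SD in WT understates the error of the ratio. The choice of TYMSOS by its level in these groups favours both the larger fold and this separation. For that reason the ratio is not tested.

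ENOSF1, which covers the other end of TYMS, showed no detectable change in either mutant. It was at 16.6 and 21.5 CPM in WT replicates 1 and 2 and at 18.8 CPM in WT replicate 3. In G245S it was at 24.5, 16.4 and 19.0 CPM, and in R273H at 16.3, 18.3 and 17.3 CPM. The highest library, G245S replicate 1, and 1 of the lowest, G245S replicate 2, belonged to the same group, and the groups overlapped throughout. WT cells held a mean of 19.1 ± 3.46 CPM (SD, n = 2), G245S cells 19.97 ± 4.10 CPM (SD, n = 3) and R273H cells 17.3 ± 1.03 CPM (SD, n = 3).
The log2 fold change of ENOSF1 was 0.068 in G245S (95% interval from −0.29 to 0.42, adjusted p = 0.970 by edgeR's quasi-likelihood fit) and −0.13 in R273H (95% interval from −0.42 to 0.15, adjusted p = 0.974). Its direction in G245S turned without single libraries, to −0.11 without G245S replicate 1 and to −0.11 without WT replicate 1. Without WT replicate 2 the value in R273H was 0.061. Without WT replicate 1 it was −0.32 (standard error 0.154, adjusted p = 0.801 by edgeR), where TYMS had −0.38. With WT replicates 2 and 3 it was −0.30 (standard error 0.141), where TYMS had −0.36. A change of ENOSF1 in R273H as large as that of TYMS was therefore within reach of the error, depending on the WT library used. Over all 9 libraries, an exact permutation test of log2 CPM between 3 WT and 6 mutant libraries gave p = 0.81. R273H against G245S gave −0.21 (95% interval from −0.49 to 0.083, adjusted p = 0.994 by edgeR).
Within a library, the log2 ratio of TYMS to ENOSF1 counts was 2.77 ± 0.283 (SD, n = 3) in WT, 2.40 ± 0.347 (SD, n = 3) in G245S and 2.54 ± 0.114 (SD, n = 3) in R273H. The differences from WT of −0.37 and −0.23 each had p = 0.3 by an exact two-sided permutation test, in which 3 against 3 libraries cannot go below 0.1. For the 6 mutant libraries together the difference was −0.30 (p = 0.167 by the same exact permutation test, smallest possible p = 0.0238). A difference in change between TYMS and ENOSF1 was therefore not shown by this test, and the spread of ENOSF1 between libraries was as large as the difference sought.

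Levels differed widely between the 3 genes. Per kb of merged exons, TYMS was at 56.7 ± 3.31 CPM (SD, n = 2) in WT, TYMSOS at 3.17 ± 0.187 and ENOSF1 at 1.68 ± 0.304. In G245S TYMSOS was at 1.46 ± 0.236 and ENOSF1 at 1.75 ± 0.360 CPM per kb (SD, n = 3). In R273H they were at 1.25 ± 0.306 and 1.52 ± 0.0904 (SD, n = 3), and in neither mutant did they differ beyond their spread. The order of TYMSOS and ENOSF1 depends on the division by length. That division assumes reads that spread over the whole transcript, which was not tested. In CPM, ENOSF1 stood above TYMSOS in every group, at 19.1 against 9.76 CPM in WT. The exons merged over all annotated transcripts span 11390 bases for ENOSF1, 2421 for TYMS and 3079 for TYMSOS, and a value per kb is lower where a gene's transcripts use few of these exons. TYMS has the processed pseudogenes TYMSP1 and TYMSP2, which held 0 counts in all 9 libraries.

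Few of the genes around the 3 could be tested. Of 53 other genes of the table within 1 Mb of the locus, 7 were tested in G245S and 6 in R273H, and 0 passed an adjusted p of 0.05 in either by edgeR's quasi-likelihood test, beside 0.126% and 0.137% of all genes tested. At an unadjusted p under 0.05 there was 1, a lncRNA without a symbol (ENSG00000266602) in G245S, and 0 in R273H, beside 6.66% and 6.11% of all genes. The nearest tested gene beyond ENOSF1 was YES1, which encodes a kinase of the SRC family, with log2 fold changes of −0.096 (adjusted p = 0.917) and −0.050 (adjusted p = 0.997). On the side of TYMSOS, COLEC12, a scavenger receptor, had 0.28 (adjusted p = 0.779) and 0.18 (adjusted p = 0.951).
THOC1, a subunit of the THO complex of mRNA export, had −0.0066 and −0.0019, and USP14, a deubiquitinase of the proteasome, −0.051 and 0.085. The lncRNAs ROCK1P1 and LINC00470 were low, with mean levels of 1.67 to 2.16 CPM. Their log2 fold changes were −0.15 and −0.25 for ROCK1P1 and −0.19 and 0.19 for LINC00470, with standard errors between 0.328 and 0.349. Their intervals, from −0.90 to 0.60 for ROCK1P1 in G245S for example, hold a change of the size measured for TYMS. The lncRNA ENSG00000266602 was at 1.73 CPM in G245S and 0.866 CPM in WT (log2 fold change 1.00, standard error 0.460, adjusted p = 0.741), and its groups overlapped. The median over these neighbours was −0.051 in G245S and 0.042 in R273H. Over chromosome 18 as a whole, where 228 and 232 genes passed the filter, the log2 fold changes had medians of −0.012 and −0.037, and TYMSOS was the 1 gene called in each.

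**Figure D3:**
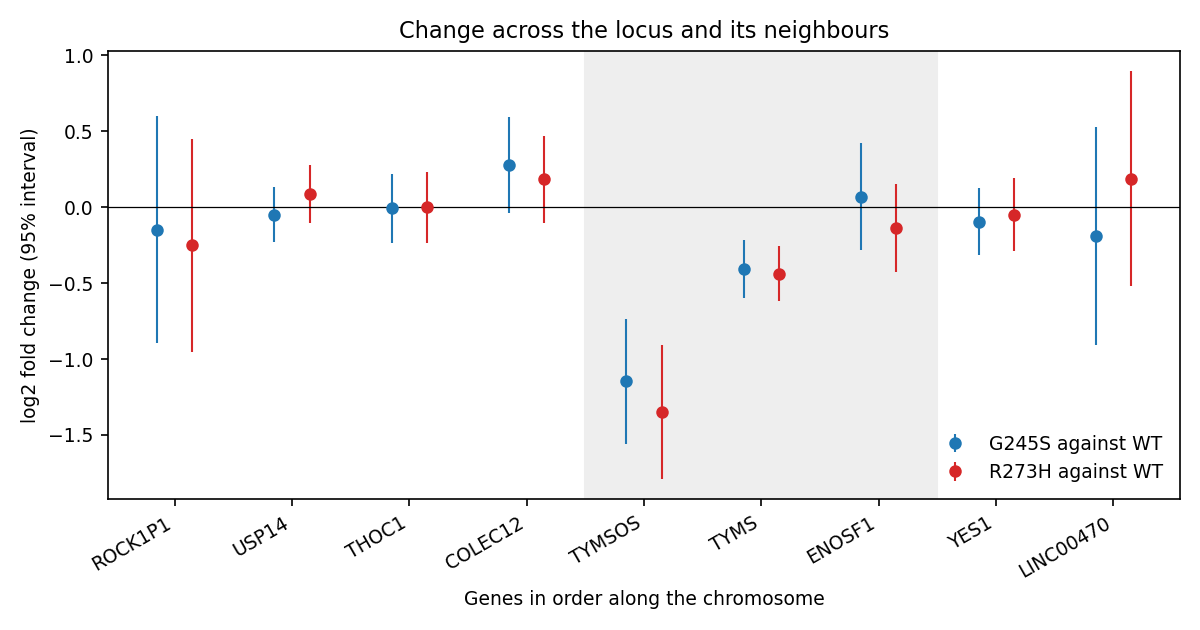
Log2 fold change with its 95% interval for the 3 genes of the locus (shaded) and the neighbours with a symbol tested in both mutants within 1 Mb, in order along the chromosome, for G245S and R273H against WT p53. TYMSOS and TYMS have intervals below 0, and ENOSF1 and all 6 neighbours have intervals that hold 0.

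TYMSOS was also set beside other RNAs that are named after a host gene and read from its opposite strand. In G245S 487 such pairs were tested, 306 with an antisense RNA, 173 with a divergent transcript and 8 with an RNA named like TYMSOS for its opposite strand. In R273H there were 496. TYMSOS had the lowest log2 fold change of all of these RNAs in each mutant and was the 1 RNA called, 0 hosts were called, and these positions follow from its choice. The median of the RNAs was 0.037 in G245S and 0.011 in R273H, and that of the hosts 0.00035 and 0.0047.
TYMS stood low among the hosts, with 13 of 486 other hosts below it in G245S and 8 of 495 in R273H. The RNA and its host had log2 fold changes of opposite sign in 232 of 487 pairs in G245S and in 233 of 496 in R273H, and both were negative in 115 and 125. Across pairs, which are not replicates, Pearson's r between the log2 fold changes of the RNA and the host was 0.049 and 0.11.

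**Figure D4:**
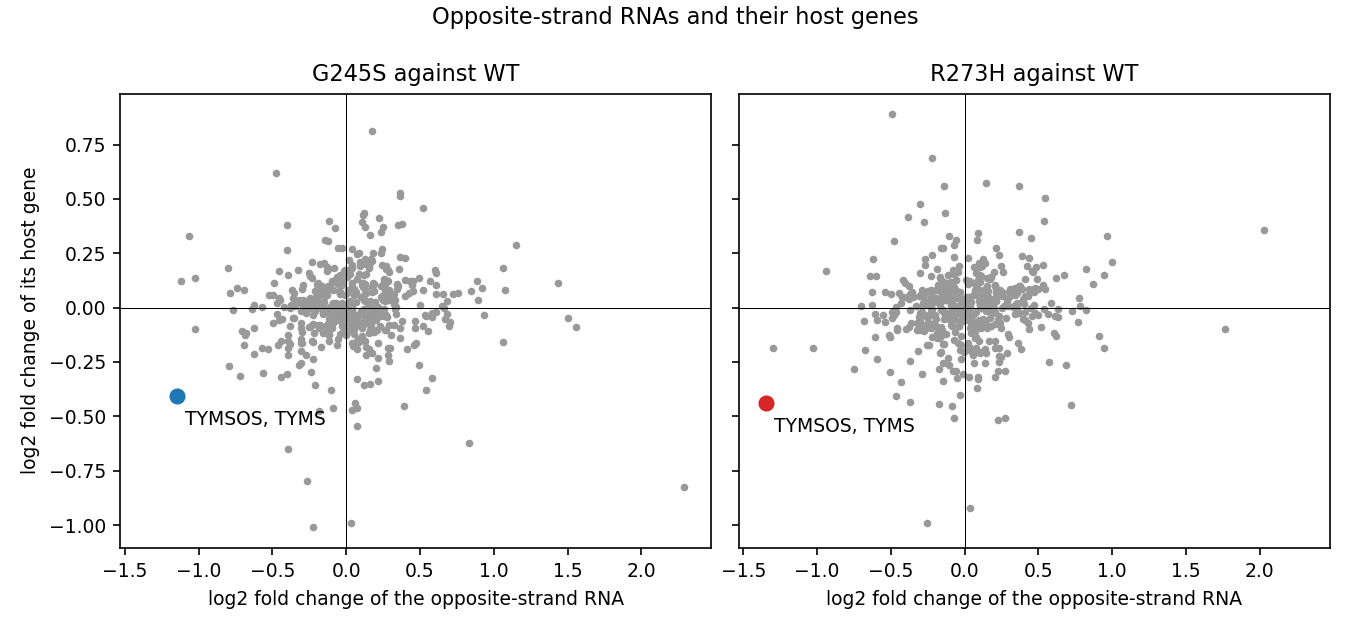
Log2 fold change of each opposite-strand RNA (x axis) and of its host gene (y axis), for 487 pairs in G245S and 496 in R273H against WT p53. The pair of TYMSOS and TYMS is coloured and lies at the left edge, with both values below 0, while the other pairs scatter around 0.

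The other genes of thymidylate and dTTP supply had smaller log2 fold changes than TYMS. Of the 20 genes on this list, all 20 were tested in each comparison, and 0 passed an adjusted p of 0.05 by edgeR's quasi-likelihood test, with 3 lower and 0 higher at an unadjusted p under 0.05 in each mutant, beside 3.3% and 3.33% of all genes lower. By sign, 16 were lower in G245S and 15 in R273H, where 49.2% and 49.3% of all genes were. The median without TYMS was −0.094 in G245S and −0.068 in R273H, beside medians of 0.0034 and 0.0023 over all genes tested. TYMS had the lowest value of the list in both mutants.
RRM1, the large subunit of ribonucleotide reductase, had log2 fold changes of −0.26 (adjusted p = 0.684) and −0.23 (adjusted p = 0.760), both by edgeR. RRM2, its small subunit, had −0.20 (adjusted p = 0.725) and −0.16 (adjusted p = 0.909), and RRM2B, the small subunit that p53 induces, −0.094 and −0.031. SHMT2, the mitochondrial serine hydroxymethyltransferase that feeds folate with carbon, had −0.18 and −0.22. The salvage kinase TK1 had −0.18 and −0.16, and its mitochondrial counterpart TK2 −0.11 and −0.36. Values above 0 in both mutants were those of DCK, the deoxycytidine kinase, at 0.21 and 0.080, and of SAMHD1, which breaks down dNTPs, at 0.13 and 0.078. None of these passed the threshold in either mutant.

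**Figure D5:**
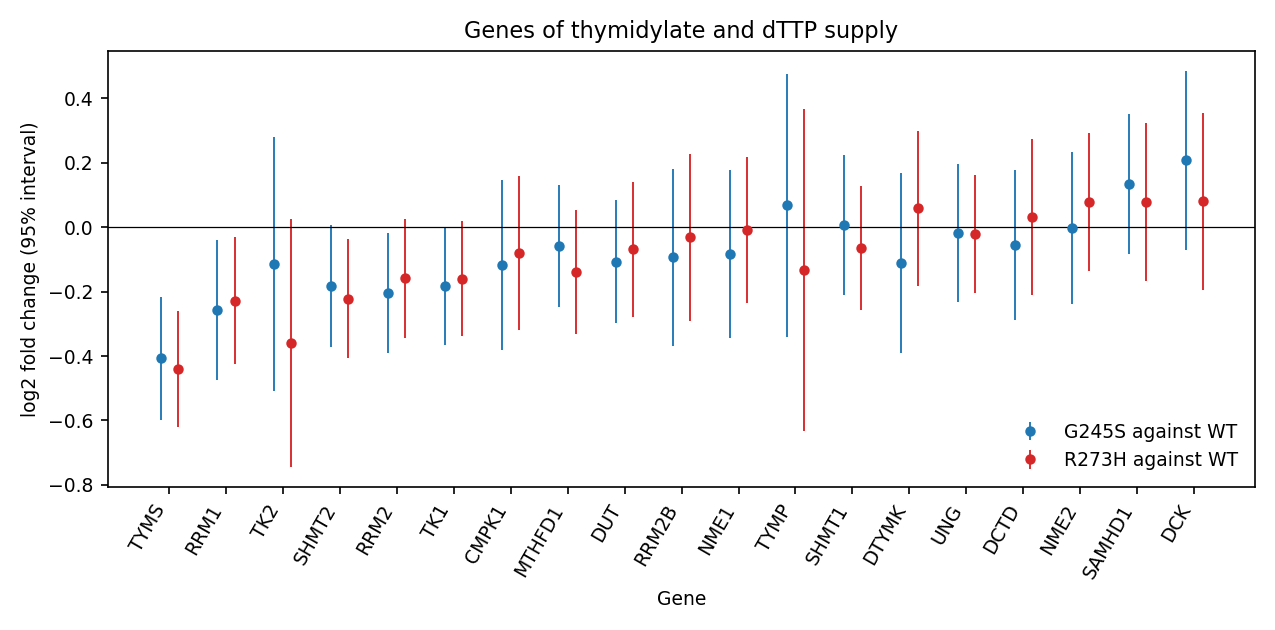
Log2 fold change with its 95% interval for 19 genes of thymidylate and dTTP supply, ordered by their sum over G245S and R273H against WT p53. TYMS is the lowest, and the other intervals hold 0 except those of RRM1 in both mutants, RRM2 in G245S and SHMT2 in R273H.

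Among 67 S phase genes driven by E2F, a list that holds TYMS and in part the genes above, 0 passed an adjusted p of 0.05 by edgeR's test in either mutant. At an unadjusted p under 0.05 there were 8 lower and 1 higher in G245S, and 7 lower and 0 higher in R273H, where 3.3% and 3.33% of all genes tested were lower. By sign, 53 and 54 were lower, beside 49.2% and 49.3% of all genes, and the median without TYMS was −0.095 and −0.096, or −0.056 and −0.059 with all 3 WT libraries. TYMS had the lowest value of this list with WT replicates 1 and 2. With all 3 WT libraries CCNE2 and E2F7 lay below it in both mutants, E2F7 at −0.42 and −0.46.
After TYMS came E2F7, a repressor of E2F genes that p53 induces, at −0.35 (adjusted p = 0.684) and −0.40 (adjusted p = 0.564), and PCNA, the sliding clamp of replication and also a p53 target, at −0.38 (adjusted p = 0.313) and −0.29 (adjusted p = 0.645). CCNE2, a cyclin of S phase entry, had −0.38 and −0.25, but −0.63 and −0.49 with all 3 WT libraries. POLA1, the catalytic subunit of DNA polymerase α, had −0.25 and −0.28. Whether the S phase genes play a part in the value of TYMS was not tested.

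For reference, of 20 p53 target genes chosen with these results known, 8 were called lower in G245S and 9 in R273H by edgeR's test, beside 0.107% and 0.112% of all genes tested, with medians of −0.65 and −0.51. The list is no independent evidence of its direction. TYMSOS thus lay below that median in both mutants and TYMS above it. Both comparisons use the same WT libraries.

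Over the 8 libraries fitted, log2 CPM of each gene was compared with that of 11642 other genes. The WT and mutant libraries form separate clusters for TYMSOS and TYMS, and so these correlations rest on the difference between the clusters and on shared WT libraries, and they are a description only. For TYMSOS the most alike were IKBIP (Pearson's r = 0.988), ENHO (0.966), GAMT (0.957), RAD51AP1 (0.957) and PYGL (0.949), and TYMS came in place 9 (0.938). For TYMS they were ENHO (0.978), PYGL (0.973), BAX (0.971), TCF19 (0.963) and DFFA (0.959), and TYMSOS came in place 12.
ENHO and PYGL, on both lists, were themselves lower in both mutants, with log2 fold changes of −1.05 and −1.30 for ENHO and −0.60 and −0.75 for PYGL. BAX, a pore former of apoptosis and a p53 target, had −0.50 (adjusted p = 0.0782 by edgeR) and −0.47 (adjusted p = 0.072 by edgeR). ENOSF1 followed neither neighbour, with r = −0.076 to TYMS and −0.0038 to TYMSOS. The genes most like ENOSF1 were FIRRE (0.963), CEP95 (0.949), CBX7 (0.935), CDC42SE2 (0.926) and CDK13 (0.923), of which 0 passed an adjusted p of 0.05 in either mutant.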

How the data were processed

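RNA from 9 libraries of stable HEK293T lines was analysed, 3 biological replicates each of WT, G245S and R273H p53. The authors filtered reads with fastp 0.24.0, aligned them to GRCh38 with STAR 2.7.11, removed duplicates by molecular identifier and counted reads per gene with featureCounts of Subread 2.1.1, by strand and with multi-mapping reads shared as fractions. The values deposited by the authors are expected counts, not normalized. Another 9 columns of CPM were not used. The study excluded 1 WT replicate for both poor sample quality and low reads, without naming it. Here WT replicate 3 was left out because its total fell below 4096044 counts (0.5 times the median of the rest).

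Counts were rounded, filtered with filterByExpr, normalized with TMM and fitted in R 4.3.3 by edgeR 4.0.16 (quasi-likelihood). Adjusted p-values are Benjamini-Hochberg values over every gene tested, called under 0.05. The CPM given were scaled over all 9 libraries. DESeq2 1.42.0 was an alternative. Exact permutation tests used scipy 1.17.1, with 0.5 added to counts in ratios. The pipeline was tested on simulated data. Intervals of counts cover counting error only.

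The genes of the locus, the lists and the alternatives were chosen with earlier results of these data known. Genes named were the 3 of the locus, tested genes within 1 Mb, in each list those past the threshold or up to 5 with the largest mean change at a mean of at least 5 CPM, opposite-strand pairs whose RNA passed, and the 5 genes most like each gene of the locus. RRM2B, TK1, DCK and SAMHD1 were named after their values were seen. Some genes are not reported here.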

Additional observations from a re-analysis of the deposited data

How the results depend on the processing

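Under every alternative tried, TYMSOS and TYMS stayed below 0 against WT, and TYMS had an unadjusted p under 0.05 in all 19 settings for each mutant. The adjusted call did not hold as firmly. TYMSOS was chosen by this call, so its settings describe how the choice depends on processing and give its fall no support. The 19 settings for each mutant include the fits with the mutants pooled, with and without WT replicate 3. These pooled fits are the same for both mutants, and TYMSOS passed in each of them. TYMSOS in G245S passed in 10 of 19 settings, and its log2 fold change, no longer past the threshold, was −1.12 with all 3 WT libraries, −1.13 with WT replicates 1 and 3, −1.05 with WT replicates 2 and 3, −1.15 with DESeq2 and −1.15 with library size scaling. Leaving out 1 library gave −1.24 to −1.005 in G245S and −1.52 to −1.17 in R273H, where the call was also lost with WT replicates 1 and 3 (−1.34) and 2 and 3 (−1.25). The libraries whose loss ended the call were WT replicates 1 and 2 and G245S replicates 1 and 3 in G245S, and WT replicate 1 in R273H. TYMS passed without a filter on low counts (−0.40 in G245S, −0.44 in R273H), with the exact test of edgeR (−0.41 and −0.44), in R273H with DESeq2 (−0.44) and with 1 fit of all 3 groups (−0.44), and with the mutants pooled (−0.43, or −0.40 with all 3 WT libraries). ENOSF1 in G245S turned to −0.10 with WT replicates 2 and 3. With the mutants pooled, which is not a fit of G245S alone, ENOSF1 was at −0.033, or −0.048 with all 3 WT libraries. Leaving out 1 library gave −0.11 to 0.26 for ENOSF1 in G245S and −0.32 to 0.061 in R273H. The ratio of TYMS to ENOSF1 kept its direction. TYMSOS between the mutants could not be tested under the stricter filter, which removed it.

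Counts of genes past the threshold moved more, from 20 in G245S to 10 with all 3 WT libraries, 3 with WT replicates 1 and 3, 144 without a filter and 73 with the exact test of edgeR, and from 22 in R273H to 4 with WT replicates 1 and 3, 13 with WT replicates 2 and 3, 93 without a filter and 61 with the exact test. Between the mutants 0 became 1 with DESeq2, 125 without a filter and 4 with the exact test, and 741 genes had an unadjusted p under 0.05. Leaving out 1 library gave 10 to 30 (13 without WT replicate 2, 10 without G245S replicate 3), 16 to 29 and 0 to 3. With 1 WT library left, it is assumed to vary like the mutant libraries. The cause of these differences was not tested.

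Deviations from the group means had r from −0.27 to 0.38 between same-numbered libraries and from −0.33 to 0.27 between others. The WT libraries fitted mirror each other around their mean, so their values cannot show pairing. Between the mutants, same-numbered libraries had r of 0.26, 0.38 and 0.015, and the others r from −0.33 to 0.14. Whether the numbers mark pairs is not settled by these values, and they were not taken as pairs. The replicate block gave 76, 47 and 59 genes past the threshold, and for TYMS −0.41 and −0.43 (adjusted p = 0.489 and 0.430 by edgeR).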

Other observations

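Genes of the folate cycle and of folate transport showed no called change. Of 30 on the list 24 were tested, 0 passed an adjusted p of 0.05 in either mutant by edgeR's quasi-likelihood test, and the medians were −0.010 in G245S and −0.015 in R273H, or 0.034 and 0.022 with all 3 WT libraries. At an unadjusted p under 0.05 there were 0 lower and 1 higher in G245S, and 1 lower and 1 higher in R273H, beside 6.66% and 6.11% of all genes in either direction. SLC46A1, the proton-coupled folate transporter, had the largest values, 0.34 in G245S (adjusted p = 0.663 by edgeR) and 0.31 in R273H (adjusted p = 0.739 by edgeR).

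Of the enolase family and L-fucose genes, to which ENOSF1 belongs, 14 were tested in G245S and 13 in R273H, with 0 called and 0 at an unadjusted p under 0.05. Values below 0 were seen for 7 of 14 and 5 of 13, with medians of 0.0086 and 0.034. ENO1, the glycolytic enolase, had log2 fold changes of 0.17 and 0.088, ENO2 of neurons 0.26 and 0.15, and FCSK, the fucose kinase, 0.29 and 0.25. The lowest value in G245S was −0.17, that of ENO3 of muscle, a gene named after its value was seen.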
